A study of Mus musculus with 4 samples.

Results

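The genes described here are 8 members of the transforming growth factor beta (TGF-beta) pathway, taken by name from a table of 28692 genes: the ligand Tgfb1, the receptors Tgfbr1 and Tgfbr2, the signal carriers Smad2 and Smad3, the inhibitor Smad7, the transcription factor Runx3 and the integrin subunit Itgb5. They were read in 4771 of 6954 cell barcodes, those with at least 1000 unique molecular identifiers (UMIs, each of which tags 1 captured RNA molecule). The barcodes came from the colon lamina propria, the connective tissue layer beneath the gut epithelium, and the cells had been sorted for CD11b and for Ly6C or CD64, a gate for monocytes and macrophages. Droplet libraries that read the 3' end of transcripts had been made from 4 male C57/Bl6N mice with no genetic change named in the labels, each in a well of its own. Mice DEP 11 and DEP 13 had been given 12 µg of diesel exhaust particles (DEP) in 200 µL phosphate-buffered saline (PBS) into the stomach (gavage), 5 days per week over some 6 months, and mice PBS 2 and PBS 3 had been given PBS alone.

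TGF-beta is secreted in a latent form, held by a propeptide from which integrins that contain the alpha v chain can release it. The active ligand binds the type II receptor, which recruits and phosphorylates the type I receptor, and this in turn phosphorylates Smad2 and Smad3, which enter the nucleus with Smad4. In the colon, blood monocytes that express Ly6c2 (the gene of the surface protein Ly6C) are known to lose it as they become resident macrophages, which express the complement gene C1qa, and TGF-beta receptor signalling is known to take part in that maturation.

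The promoters of Tgfbr1, Tgfbr2, Runx3 and Itgb5 are shown because these members were higher at high than at low C1qa in all 4 mice. Each line gives the 250 bases before the start of transcription, 5′ to 3′ on the strand of the gene, from RefSeq annotation of GRCm38.p6, and capitals mark the motif matches. The letters searched on both strands were CAGAC (the Smad box), TGTGGT or TGCGGT (Runx elements) and GAGGAA (an Ets element), and no matches overlapped.
Tgfbr1, chr4:47352972-47353221, plus strand: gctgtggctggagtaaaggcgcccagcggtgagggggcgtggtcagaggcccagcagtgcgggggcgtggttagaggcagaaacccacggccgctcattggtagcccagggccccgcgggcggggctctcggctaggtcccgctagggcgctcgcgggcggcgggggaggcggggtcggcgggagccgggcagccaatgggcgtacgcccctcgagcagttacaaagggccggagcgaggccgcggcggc
Tgfbr2, chr9:116175364-116175613, minus strand: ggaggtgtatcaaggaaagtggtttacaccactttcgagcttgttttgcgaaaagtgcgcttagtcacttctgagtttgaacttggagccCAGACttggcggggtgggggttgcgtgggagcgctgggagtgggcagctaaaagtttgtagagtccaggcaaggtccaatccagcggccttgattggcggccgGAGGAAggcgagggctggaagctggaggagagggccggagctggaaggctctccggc
Runx3, chr4:135120395-135120644, plus strand: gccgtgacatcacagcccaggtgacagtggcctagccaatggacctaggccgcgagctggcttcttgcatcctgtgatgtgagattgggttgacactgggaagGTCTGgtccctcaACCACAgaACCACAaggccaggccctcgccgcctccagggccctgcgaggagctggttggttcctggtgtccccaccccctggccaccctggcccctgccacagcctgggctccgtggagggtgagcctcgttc
Itgb5, chr16:33829415-33829664, plus strand: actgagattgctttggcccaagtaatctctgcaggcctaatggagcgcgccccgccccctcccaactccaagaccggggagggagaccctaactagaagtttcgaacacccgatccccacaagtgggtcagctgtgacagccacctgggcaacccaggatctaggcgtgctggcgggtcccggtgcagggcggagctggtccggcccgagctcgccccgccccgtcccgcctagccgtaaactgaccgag

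The Tgfbr2 window held 1 Smad box, at 160 to 156 bases before the start, and 1 Ets element, at 57 to 52 bases. The Runx3 window held 1 Smad box on the other strand, at 147 to 143 bases, and 2 Runx elements on the other strand, at 134 to 129 and at 126 to 121 bases. None of these letters were found in the Tgfbr1 and Itgb5 windows shown. A Smad box was present in 42.2% of the 32851 promoter windows in the table, a Runx element in 18.6% and an Ets element in 23.3%, so a match is a description of the sequence and not a binding site. Promoters were given for 6 of the 8 members, and for Tgfbr1 and Runx3, which have 2 each, the one at the start of the gene is shown. The second Tgfbr1 window held 1 Smad box (203 to 199 bases before its start) and 1 Ets element (95 to 90), and the second Runx3 window held 1 Smad box (248 to 244).

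The kept barcodes numbered 1218 for DEP 11, 675 for DEP 13, 1296 for PBS 2 and 1582 for PBS 3, with median depths of 5328.5 to 7115.5 UMIs and 4357153 to 10063287 UMIs in all. For each mouse, UMIs were summed over groups of barcodes, and a level is given in CPM, the UMIs of a gene per 1000000 UMIs of all genes in that sum, with no other scaling. A barcode was called high for Ly6c2 or for C1qa from 5 UMIs per 10000, which gave 4 strata: 125 barcodes high for Ly6c2 but not C1qa (Ly6c2-high), 504 high for both (double-high), 3865 high for C1qa but not Ly6c2 (C1qa-high) and 277 high for neither (double-low). These are ranges along continuous levels and not cell types, and C1qa lay between 4 and 6 per 10000 in 234 barcodes. The summed level of 11 macrophage markers was 43534 CPM in C1qa-high barcodes, 16168 in double-high and 13438 in Ly6c2-high ones. That of 11 monocyte markers was 1546, 6190 and 7809. The macrophage list holds C1qb and C1qc, and the monocyte list Ly6c1. These are relatives of C1qa and Ly6c2, so this order was in part set by the division. Of other cell types, plasma cell markers (5 genes, all detected) stood at 3063 CPM in C1qa-high, 10931 in double-high and 1022 in Ly6c2-high barcodes. In these strata the T cell, B cell, dendritic cell, neutrophil, eosinophil, fibroblast, epithelium and endothelium lists each summed to at most 82.7. Double-low barcodes had plasma cell markers at 4309 CPM, and the B cell, epithelium, T cell and dendritic cell lists at 123, 114, 108 and 107. C1qa was at 0 in 117 barcodes and its median was 33.1 per 10000, and a second division that called C1qa high from 20 per 10000 was added after seeing the data. It gave 555 Ly6c2-high, 74 double-high, 2761 C1qa-high and 1381 double-low barcodes.

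Both receptors were higher at the upper than at the lower end of the C1qa range. Tgfbr1, the type I receptor, is encoded on chromosome 4 (47353222 to 47414931, plus strand, mm10). In barcodes with C1qa under 5 per 10000, its level was 51.0 CPM for DEP 11, 64.1 for DEP 13, 15.7 for PBS 2 and 50.3 for PBS 3. In barcodes with C1qa at 60 per 10000 or more, it was 205 for DEP 11, 237 for DEP 13, 184 for PBS 2 and 197 for PBS 3. The mean level was thus 45.3 ± 20.7 at the lower end and 206 ± 22.6 at the upper end (SD, n = 4), a 4.55-fold difference with no overlap, and between them the means were 57.4 at 5 to 20, 124 at 20 to 40 and 177 at 40 to 60 per 10000. Of the 16 steps from 1 C1qa range to the next (4 in each of 4 mice), 14 went up.

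Tgfbr2, the type II receptor that binds the ligand (chromosome 9, 116084293 to 116175360, minus strand), was at 23.2 CPM for DEP 11, 27.5 for DEP 13, 26.2 for PBS 2 and 16 for PBS 3 where C1qa was under 5 per 10000. At 60 per 10000 or more its level was 60.2, 80.2, 63.0 and 63.3 in the same order. The 2 ends did not overlap, and the mean went from 23.2 ± 5.13 to 66.7 ± 9.14 (SD, n = 4), 2.87-fold. Unlike Tgfbr1, it was no higher at 5 to 20 per 10000, where its mean was 18.4 ± 3.17, and 12 of 16 steps went up.

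Itgb5, the beta 5 chain that pairs with alpha v to form an integrin able to release TGF-beta (chromosome 16, 33829665 to 33949338, plus strand), had a level of 43.3 CPM for DEP 11, 34.3 for DEP 13, 21.0 for PBS 2 and 29.7 for PBS 3 at the lower end of C1qa. At the upper end it was 143, 129, 132 and 129. Its mean level went from 32.1 ± 9.32 to 133 ± 6.62 (SD, n = 4), 4.15-fold with no overlap, and 15 of 16 steps went up. Runx3, a transcription factor of the Runx family that acts with Smads (chromosome 4, 135120652 to 135177990, plus strand), stood at 63.4, 50.4, 78.6 and 61.8 at the lower end and at 122, 104, 124 and 112 at the upper end. These values did not overlap either, as for 4 of the 7 members that passed the filter on low values in all, where 11.6% of all tested genes were higher in this way. Runx3 levelled off, since its mean was 63.5 ± 11.6 under 5, 73.7 ± 9.44 at 5 to 20, 118 ± 31.1 at 20 to 40, 131 ± 15.0 at 40 to 60 and 116 ± 9.27 at 60 per 10000 or more.

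Smad7, the inhibitory Smad that TGF-beta itself induces, was scarce. Its level in the 4 mice was 4.58 to 10.8 CPM at the lower end of C1qa, from 13 UMIs in all, and 10.5 to 29.1 at the upper end, from 209 UMIs. It was higher at the upper end in 4 of 4 mice, but the ranges overlapped by a small margin, since PBS 3 at the upper end (10.5) lay below DEP 11 at the lower end (10.8). The ligand Tgfb1 (chromosome 7, 25687002 to 25705077, plus strand) and the signal carriers showed no such slope. Tgfb1 had a mean level of 204 ± 78.0 at the lower end and 182 ± 62.5 at the upper end, with 1 mouse higher and 3 lower. Smad2 was at 15.7 ± 7.30 and 17.0 ± 3.48, with 3 mice higher, and Smad3 (chromosome 9, 63646767 to 63757994, minus strand) at 11.4 ± 7.63 and 8.80 ± 1.48, with 1 mouse higher.

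**Figure D1:**
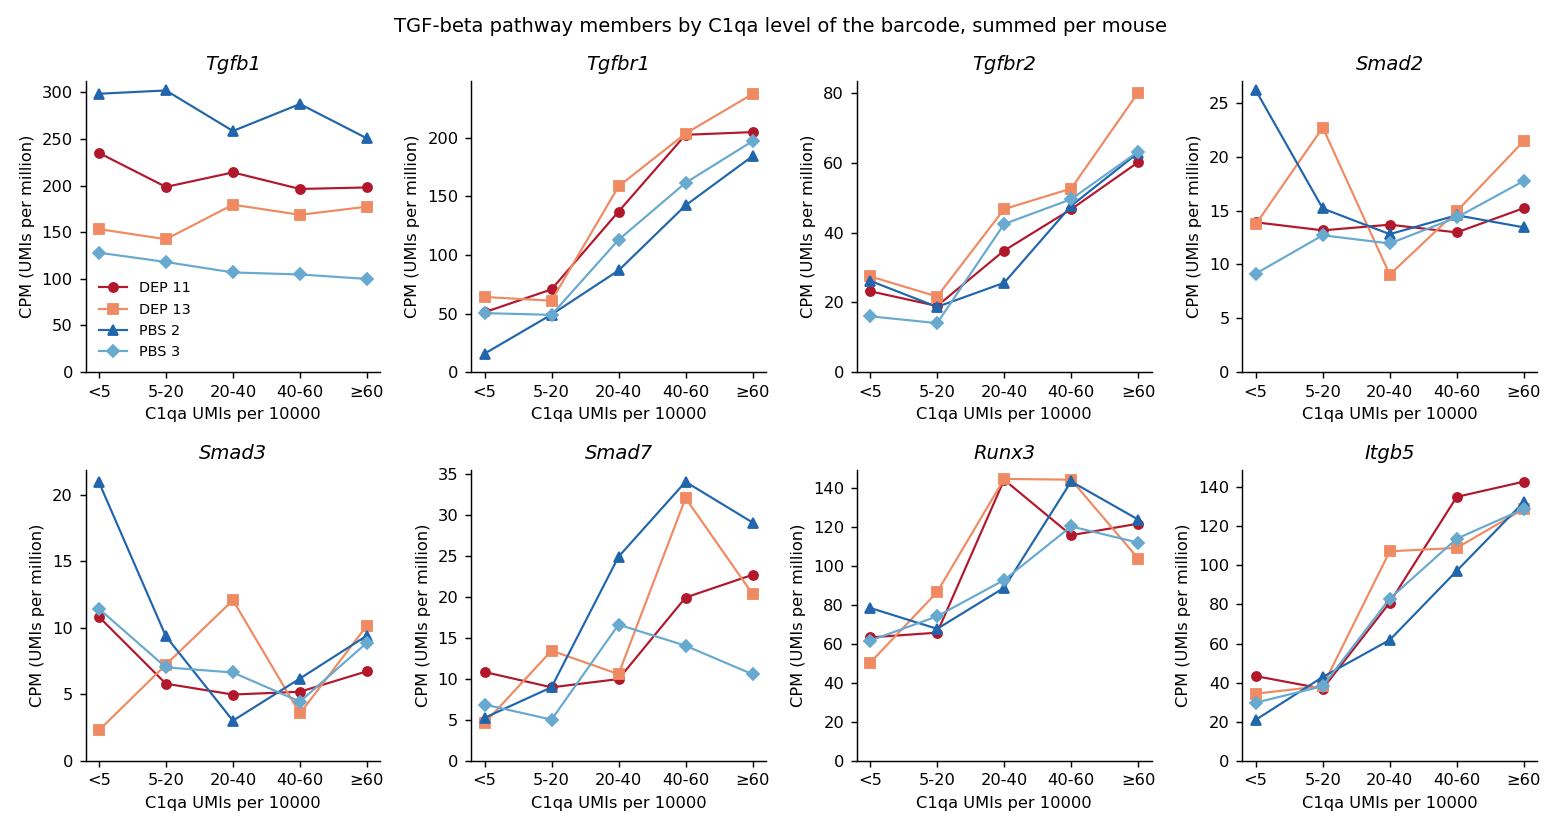
Level of each member (y axis, CPM) in 5 ranges of C1qa UMIs per 10000 (x axis), with 1 line for each of the 4 mice. Tgfbr1, Tgfbr2 and Itgb5 are higher in the top than in the bottom range in every mouse, with means of 206, 66.7 and 133 against 45.3, 23.2 and 32.1, Tgfbr2 is no higher at 5 to 20 than under 5, Runx3 levels off from 20 to 40 per 10000, and the Tgfb1 lines lie at different heights in different mice with no common slope.

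Ly6c2 gave the opposite order. Tgfbr1 averaged 160 CPM in barcodes without a Ly6c2 UMI, 129 where Ly6c2 was above 0 and under 5 per 10000, 49.8 at 5 to 10 and 35.9 at 10 or more. Itgb5 went from 105 to 84.5, 32.3 and 30.8 over the same ranges, Runx3 from 115 to 103, 70.2 and 42.3, and Tgfbr2 from 49.4 to 37.7, 21.6 and 13. Tgfb1 stayed between 184 and 197 in all 4 ranges. Since barcodes with much C1qa had little Ly6c2, levels were also read by both markers at once. Among barcodes with C1qa under 20 per 10000, Tgfbr1 was at 74.9 ± 17.9 without Ly6c2, 52.4 ± 12.6 with Ly6c2 above 0 and under 5, and 36.9 ± 12.9 at 5 or more (SD, n = 4). With C1qa at 20 or more it was at 182 and 173 in the first 2 of these Ly6c2 ranges, and at 85.3 ± 54.6 in the third, which rested on 74 barcodes, 3 of them in DEP 13. Tgfbr1 was thus higher at high C1qa whether or not a barcode had a low amount of Ly6c2. Runx3 followed the same order at low C1qa (93.1, 65.4 and 48.5), but with C1qa at 20 or more it was at 121, 123 and 113 ± 41.3, and the last, on 74 barcodes, ran from 56.3 to 153 over the mice, too wide to place it against the others.

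Between strata, the question was whether the members differ between the less and the more mature ends of the gate. In the first comparison, C1qa-high against Ly6c2-high barcodes, 7 members could be tested. Smad3 was left out by the filter on low values, with a UMI in 4.44% of barcodes. The test was the quasi-likelihood test of edgeR over sums per mouse and stratum with the mouse as a block, and adjusted p-values (Benjamini-Hochberg) ran over all 6607 genes tested. Tgfbr1 had a level of 167 CPM for DEP 11, 180 for DEP 13, 136 for PBS 2 and 131 for PBS 3 in C1qa-high barcodes. In Ly6c2-high barcodes its level was 20.7, 20.1, 0 and 28.7, from 10 UMIs in all. The groups lay far apart, with a log2 fold change of 3.20 (SE 0.34, adjusted p = 4.3e-09 by edgeR). A Tgfbr1 UMI was seen in 49.1% of C1qa-high and 8% of Ly6c2-high barcodes, and in 13.3% and 3.20% after each barcode was thinned to 1000 UMIs.

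Itgb5 was at 111, 101, 98.5 and 93 CPM in C1qa-high barcodes of DEP 11, DEP 13, PBS 2 and PBS 3, and at 16.6, 40.1, 11.6 and 57.4 in Ly6c2-high ones. The groups did not overlap, and the log2 fold change was 2.0 (SE 0.31, adjusted p = 1.1e-05 by edgeR). Runx3 was at 112, 126, 115 and 103 against 62.1, 30.1, 69.5 and 19.1, again without overlap (9.94% of all tested genes were higher with none), and its log2 fold change was 1.36 (SE 0.25, adjusted p = 0.00015 by edgeR). Smad7 had 525 UMIs in C1qa-high barcodes, at 18.4, 22.8, 26.2 and 11.9 CPM, and 0 UMIs in the Ly6c2-high barcodes of every mouse. A count of 0 among 532313 UMIs allows up to 5.64 CPM over the stratum (3 counts), so that the level in C1qa-high barcodes, 19.5 over the 4 mice, was at least 3.46-fold higher (adjusted p = 0.0045 by edgeR). By counting error alone, 0 of 125 barcodes allows a share of up to 2.4% with a Smad7 UMI. This call was lost without DEP 11 (adjusted p = 0.052 by edgeR) and when strata were set at 2.5 per 10000 (adjusted p = 0.19 by edgeR).

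Tgfbr2 did not pass the test in this comparison. Its level was 45.5, 52.2, 46.5 and 42.6 CPM in C1qa-high barcodes and 24.8, 30.1, 57.9 and 28.7 in Ly6c2-high ones, where PBS 2 was high on 5 UMIs, and the log2 fold change was 0.67 (SE 0.36, adjusted p = 0.26 by edgeR). Tgfb1 (log2 fold change -0.06, SE 0.16) and Smad2 (0.09, SE 0.56) did not pass either, and the large error of Smad2 came with 8 UMIs in the Ly6c2-high barcodes. In all, 4 of 7 members were called higher and 0 lower, where 6.67% of all tested genes were called higher. Smad7 met the filter on low values only through the C1qa-high barcodes (a UMI in 10.3% of them, and in 0% to 4.33% of the other strata), so its call was favoured by the filter and is no support. Without it, 3 of 6 were called. The median log2 fold change was 1.01 over these 6 members (1.36 with Smad7) and 0.10 over all tested genes.

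With C1qa called high from 20 per 10000, the Ly6c2-high stratum held 555 instead of 125 barcodes and Tgfbr2 passed. Its level was then 53.8, 59.2, 52.3 and 52.0 CPM in C1qa-high barcodes of DEP 11, DEP 13, PBS 2 and PBS 3, and 23.7, 21.6, 14.2 and 9.24 in Ly6c2-high ones, with no overlap (16% of all tested genes were higher with none) and a log2 fold change of 1.69 (SE 0.20, adjusted p = 7.7e-10 by edgeR). Tgfbr1 (2.10, SE 0.15), Itgb5 (1.97, SE 0.15), Runx3 (1.28, SE 0.13) and Smad7 (3.14, SE 0.42, on 7 UMIs in Ly6c2-high barcodes, all in PBS 2) also passed the edgeR test. That made 5 of 7 members higher (4 of 6 without Smad7), against 17.1% of all tested genes, while Tgfb1 (-0.10, SE 0.11) and Smad2 (0.06, SE 0.27) again did not pass. Plasma cell markers stood at 1948 to 18365 CPM by mouse in Ly6c2-high barcodes at this division, at 611 to 12032 in double-high and at 370.3 to 2408 in C1qa-high ones, and their part in the calls at 20 per 10000 was not tested.

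**Figure D2:**
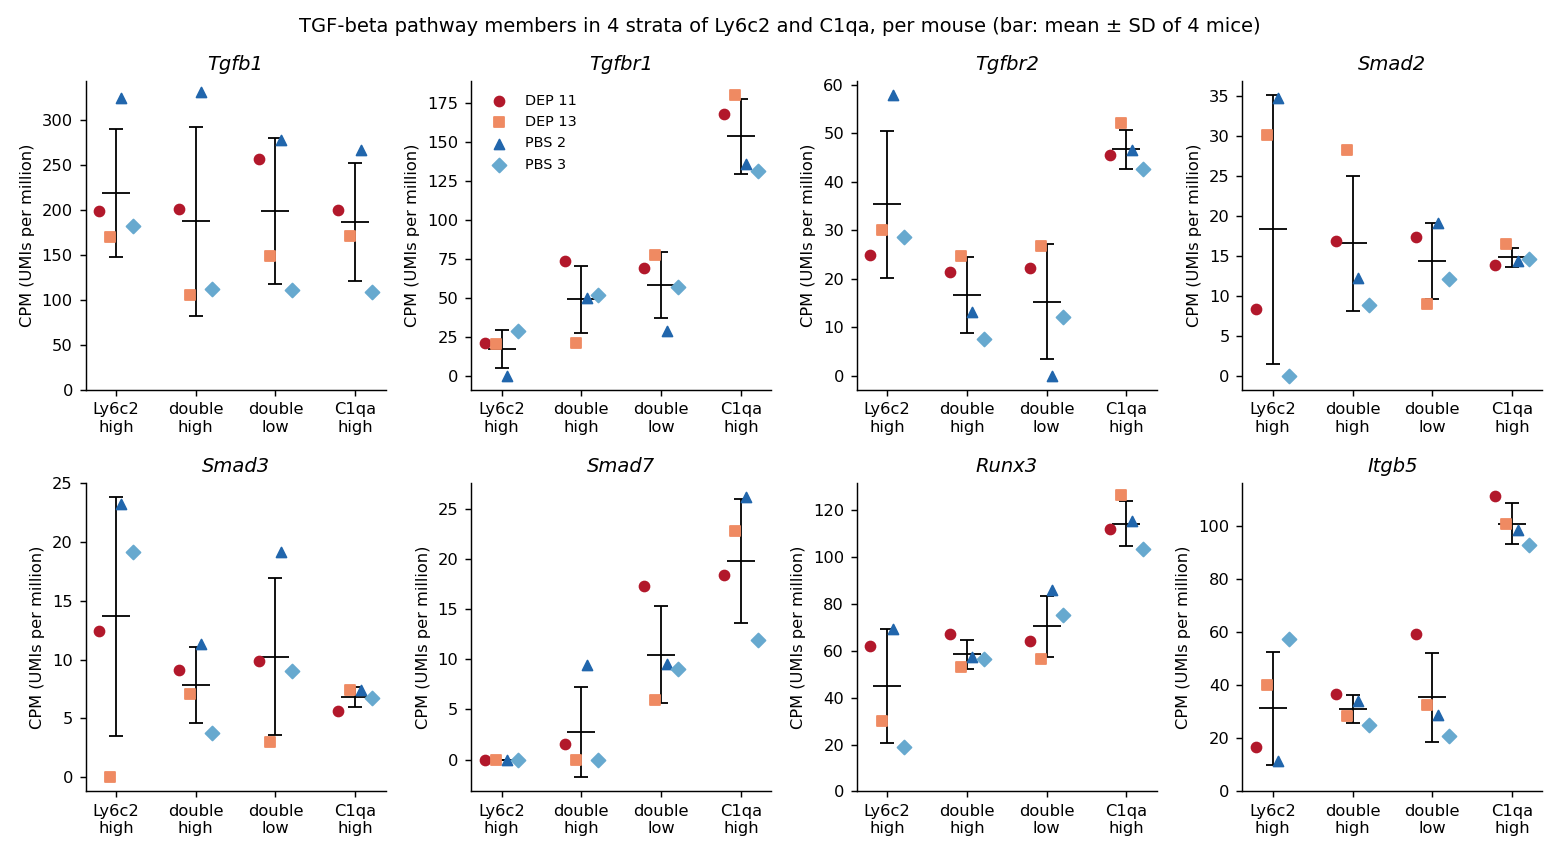
Level of each member (y axis, CPM) in the Ly6c2-high, double-high, double-low and C1qa-high strata (x axis), with 1 point per mouse and bars at the mean ± SD of 4 mice. Tgfbr1, Itgb5 and Runx3 are highest in C1qa-high barcodes in every mouse, Smad7 is at 0 in Ly6c2-high barcodes, and Tgfb1 has PBS 2 on top in all 4 strata, at 267 to 331.

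In double-high barcodes, which carried both markers, Tgfbr1 alone among the members passed the test against Ly6c2-high barcodes, and only narrowly. Tgfbr1 had a level of 73.2, 21.2, 49.98 and 51.4 CPM there in DEP 11, DEP 13, PBS 2 and PBS 3, and its log2 fold change against Ly6c2-high barcodes was 1.78 (SE 0.43, adjusted p = 0.0499 by edgeR). It was the 1 call among 7 members, where 0.424% of all tested genes were called higher. The call was lost without DEP 11 (adjusted p = 0.56 by edgeR), PBS 2 (0.14) or PBS 3 (0.16) and with DESeq2 (0.098). RLE scaling, at least 3000 UMIs, thinning to 1000 UMIs, strata at 2.5 or 10 per 10000 and no mouse block lost it as well. So did leaving out the top 5% of barcodes by UMIs, or barcodes with lymphoid or plasma UMIs by either rule. Runx3 was at 67.1, 52.9, 57.5 and 56.5, with a log2 fold change of 0.49 (SE 0.30, adjusted p = 0.86 by edgeR). Tgfbr2 pointed the other way without passing, with 14.7 CPM over the 4 mice in double-high and 31.9 in Ly6c2-high barcodes (41 and 17 UMIs), a log2 fold change of -0.88 (SE 0.47, adjusted p = 0.79 by edgeR) that turned to 0.60 at the 20 per 10000 division. Over all 7 members the median was 0.40 (0.26 without Smad7, which had no UMI in Ly6c2-high barcodes), beside 0.10 over all tested genes. At the 20 per 10000 division, where the double-high stratum held 74 barcodes, Tgfbr1 (1.25, adjusted p = 0.019 by edgeR) and Runx3 (1.12, adjusted p = 0.0094 by edgeR) were called, 2 of 7 against 0.999% of all tested genes.

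The double-high and C1qa-high strata differed in both markers, since the median C1qa was 10.5 per 10000 in double-high and 45.0 in C1qa-high barcodes. In C1qa-high against double-high barcodes 5 of 7 members were called higher and 0 lower by edgeR, where 10.3% of all tested genes were called higher, and without Smad7, which the filter favoured as above, 4 of 6 were. Tgfbr2 went from 21.3, 24.7, 13.2 and 7.53 CPM in DEP 11, DEP 13, PBS 2 and PBS 3 to the C1qa-high values given above, with a log2 fold change of 1.55 (SE 0.22). Itgb5 went up from 36.6, 28.2, 33.9 and 25.1 (1.60, SE 0.16), and Smad7 from 1.52, 0, 9.43 and 0 (2.31, SE 0.41, with a UMI in 1.79% of double-high barcodes). Tgfbr1 (1.41, SE 0.15) and Runx3 (0.86, SE 0.13) were higher as well. None of these 5 members overlapped between the 2 strata in the 4 mice, and 13.4% of all tested genes were likewise higher with no overlap. Tgfb1 was at 201, 106, 331 and 112 in double-high barcodes (-0.09, SE 0.12), and Smad2 gave -0.03 (SE 0.28). The median was 1.14 over the 6 members without Smad7 (1.41 with it), against 0.00 over all tested genes. Plasma cell markers were higher in double-high than in C1qa-high barcodes (3545 to 22931 CPM by mouse, against 1199 to 5023). With the barcodes richest in lymphoid and plasma cell markers left out (at least 50 UMIs per 10000, 124 barcodes), 5 of 7 members were called higher, Smad7 included, against 11.4% of all tested genes. The part of markers below that level was not tested. At the 20 per 10000 division 2 of 7 were called, Itgb5 (1.54, adjusted p = 0.00019 by edgeR) and Tgfbr1 (0.85, adjusted p = 0.026 by edgeR), against 3.33% of all tested genes.

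**Figure D3:**
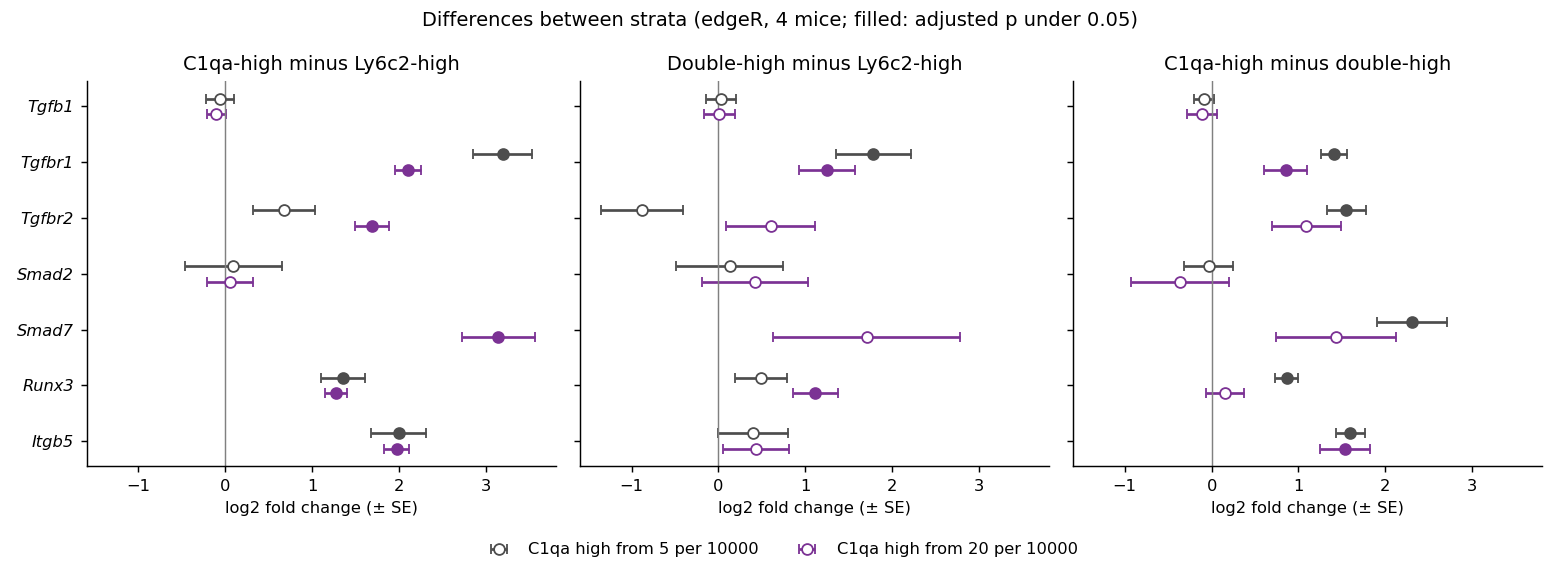
Log2 fold changes with SE (x axis) of 7 members (rows) for the 3 comparisons between strata, with C1qa called high from 5 (grey) or 20 (purple) per 10000 and filled points for an edgeR adjusted p under 0.05. Tgfbr1 and Itgb5 are to the right of 0 and filled in the outer panels at both divisions, Tgfb1 lies near 0 in all panels, and Smad7 at 5 per 10000 is drawn in the right panel alone because the Ly6c2-high stratum had no UMI of it.

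The other genes of the pathway were taken from a list of 75, of which 32 passed the filter on low values. In C1qa-high against Ly6c2-high barcodes 7 of the 32 were called higher and 2 lower by edgeR (median log2 fold change 0.39, or 0.22 without 9 genes that the filter on low values favoured), beside 6.67% higher and 5.83% lower over all tested genes. By role, these were 3 higher and 1 lower of 7 latency and activation genes, 2 higher and 1 lower of 8 targets, 1 higher of 6 inhibitors and turnover genes, 1 higher of 3 other receptors, and 0 of 1 other ligand, of 5 other Smads and partners and of 2 genes of the non-Smad branch. Of the 32, 9 reached a UMI in 5% of barcodes in the C1qa-high but not in the Ly6c2-high stratum, so that the filter favoured a call of them as higher, and they made up 5 of the 7 higher calls. Of the other 23, 2 were called higher and 2 lower. At the 20 per 10000 division the calls became 17 higher and 3 lower of the 32, against 17.1% and 16% of all tested genes. Without the 7 that met the 5% there in C1qa-high barcodes alone, they were 11 higher and 3 lower of 25. Pmepa1, a TGF-beta target that dampens Smad signalling, was at 88.0, 95.1, 72.9 and 78.5 CPM in C1qa-high barcodes of DEP 11, DEP 13, PBS 2 and PBS 3 and at 4.14, 10.0, 34.8 and 0 in Ly6c2-high ones (log2 fold change 3.26, SE 0.49). Itgav, the alpha v chain that pairs with Itgb5, was at 47.8, 50.6, 49.3 and 46.2 against 16.6, 10.0, 0 and 9.56 (2.23, SE 0.45). Both were apart in all 4 mice, and both are among the 9 that the filter favoured, with a UMI in 4% and 4.8% of Ly6c2-high barcodes.

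Mmp14, a membrane protease that the filter favoured likewise (a UMI in 4.8% of Ly6c2-high barcodes), was also higher (2.67, SE 0.48), as was Cx3cr1, a chemokine receptor of resident macrophages that also stands in the macrophage marker list (0.88, SE 0.15). The 2 genes called lower were Nrros, which holds latent TGF-beta on the surface of myeloid cells, at 132, 103, 170 and 115 CPM in C1qa-high against 223, 140, 324 and 134 in Ly6c2-high barcodes (log2 fold change -0.52, SE 0.15), and Id3, a target more often tied to bone morphogenetic proteins (-0.77, SE 0.23). The Nrros call was lost without DEP 11 (adjusted p = 0.26 by edgeR) or PBS 2 (0.12), and that of Id3 without DEP 11 (0.052), PBS 2 (0.14) or PBS 3 (0.054), with its direction turned (0.25) for strata divided at 2.5 per 10000. Nrros was lower in C1qa-high barcodes in each mouse, although the 2 sets of values overlapped. In C1qa-high against double-high barcodes 14 of the 32 were called higher and 3 lower (median 0.34, or 0.28 without those that the filter favoured), beside 10.3% higher and 11.4% lower over all tested genes. At the 20 per 10000 division these became 5 higher and 0 lower of the 32, against 3.33% and 2.06%, so that the 3 lower calls were lost. Without the genes that met the 5% in C1qa-high but not in double-high barcodes, 11 of 26 were called higher and 3 lower, and 3 of 25 and 0 at the 20 per 10000 division. The 4 highest ranked were Pmepa1 (2.61, SE 0.23), Mmp14 (2.07, SE 0.23), Cx3cr1 (0.93, SE 0.12) and Plau, the urokinase gene (3.29, SE 0.48, on 5 UMIs in double-high barcodes), which met the filter through C1qa-high barcodes alone (a UMI in 9.21% of them and in 0.992% of double-high ones) and whose call is no support. The 3 lower ones were Nrros (-0.46, SE 0.11), Id3 (-0.55, SE 0.15) and Thbs1, encoding an activator of latent TGF-beta that also stands in the monocyte marker list (-0.46, SE 0.15). The Thbs1 call was lost without PBS 2 (adjusted p = 0.52 by edgeR) or PBS 3 (0.13) and its direction turned (0.25) without barcodes that held at least 3 lymphoid or plasma cell UMIs, and the Id3 call without DEP 11 (0.12). In double-high against Ly6c2-high barcodes 0 of the 32 were called (median 0.02), against 0.424% of all tested genes called higher. At the 20 per 10000 division Mmp14 was called higher (2.32, SE 0.48), 1 of 32 against 0.999%, and it had met the filter's 5% in double-high but not in Ly6c2-high barcodes.

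By exposure, the comparison was of 2 DEP with 2 PBS mice. The edgeR p-values here rest on the spread between these 4 mice, drawn towards that of all tested genes. In the sums over all kept barcodes, 0 of 7 members and 0 of 6607 genes (0%) were called by edgeR. An unadjusted p under 0.05 was given to 171 genes, and DESeq2 called 4 genes. Tgfbr1 had a level of 149 CPM for DEP 11, 158 for DEP 13, 124 for PBS 2 and 121 for PBS 3. Both DEP mice were above both PBS mice, with means of 153 ± 6.53 and 122 ± 2.58 (SD, n = 2 each), and the log2 fold change was 0.33 (SE 0.14, adjusted p = 0.997 by edgeR). It was the 1 member of 7 whose groups did not overlap, and 26.6% of all tested genes had both DEP mice on 1 side of both PBS mice. The other 6 members had log2 fold changes of -0.04 to 0.14, and the median was 0.11 over the members and -0.01 over all tested genes.

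Among C1qa-high barcodes Tgfbr1 was at 167 and 180 CPM in the DEP mice and at 136 and 131 in the PBS mice, with means of 174 ± 8.80 and 133 ± 3.35 and a log2 fold change of 0.39 (SE 0.15). The unadjusted p was under 0.05 for this member of the 7 and for no other, and the difference did not pass the correction (adjusted p = 0.9997 by edgeR). With C1qa high from 20 per 10000 it was 0.34 (SE 0.16, adjusted p = 0.9996 by edgeR). Again 0 of 7 members and 0 of 6764 genes (0%) were called by edgeR, 209 had an unadjusted p under 0.05, and DESeq2 called 6. In Ly6c2-high barcodes, which numbered 19 to 55 per mouse, 0 of 7 members (here with Smad3 and without Smad7) and 0 of 5121 genes (0%) passed the edgeR test, 211 genes had p under 0.05 before adjustment, and members lay between -1.2 and 0.35. In double-high barcodes 0 of 6 members were called, where 0.0173% of all tested genes were, and they lay between -0.40 and 1.13, the latter Tgfbr2 (SE 0.52), the member of the 6 with an unadjusted p under 0.05 there (adjusted p = 0.999 by edgeR). At these depths changes of the size seen for Tgfbr1 were not detectable in the Ly6c2-high stratum, where its SE was 1.06.

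Whether the DEP difference depends on maturation was tested as an interaction between exposure and stratum (C1qa-high against Ly6c2-high). None of 7 members were called by edgeR and no member had an unadjusted p under 0.05 (3 had at the 20 per 10000 division, with 0 called), where 0.0891% of all tested genes were called. The other pathway genes gave 0 calls of 32 tested in all barcodes, 0 of 32 in C1qa-high, 0 of 28 in double-high and 0 of 24 in Ly6c2-high barcodes. The strata themselves took different shares of the barcodes: Ly6c2-high ones made up 3.89% ± 0.888 in DEP and 1.65% ± 0.260 in PBS mice, and C1qa-high ones 78.3% ± 1.74 and 83.0% ± 0.0201 (SD, n = 2 each). Double-low ones made up 9.29% ± 1.53 and 3.54% ± 2.5, and these 3 shares gave p = 0.333 in the exact two-sided permutation test, the smallest that 2 against 2 mice allow. Double-high ones went the other way, at 8.50% ± 2.38 and 11.8% ± 2.74 (exact permutation p = 0.667). At the 20 per 10000 division the Ly6c2-high difference, DEP minus PBS, turned from 2.24 to -0.547 percentage points and the C1qa-high one went from -4.69 to -0.943.

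**Figure D4:**
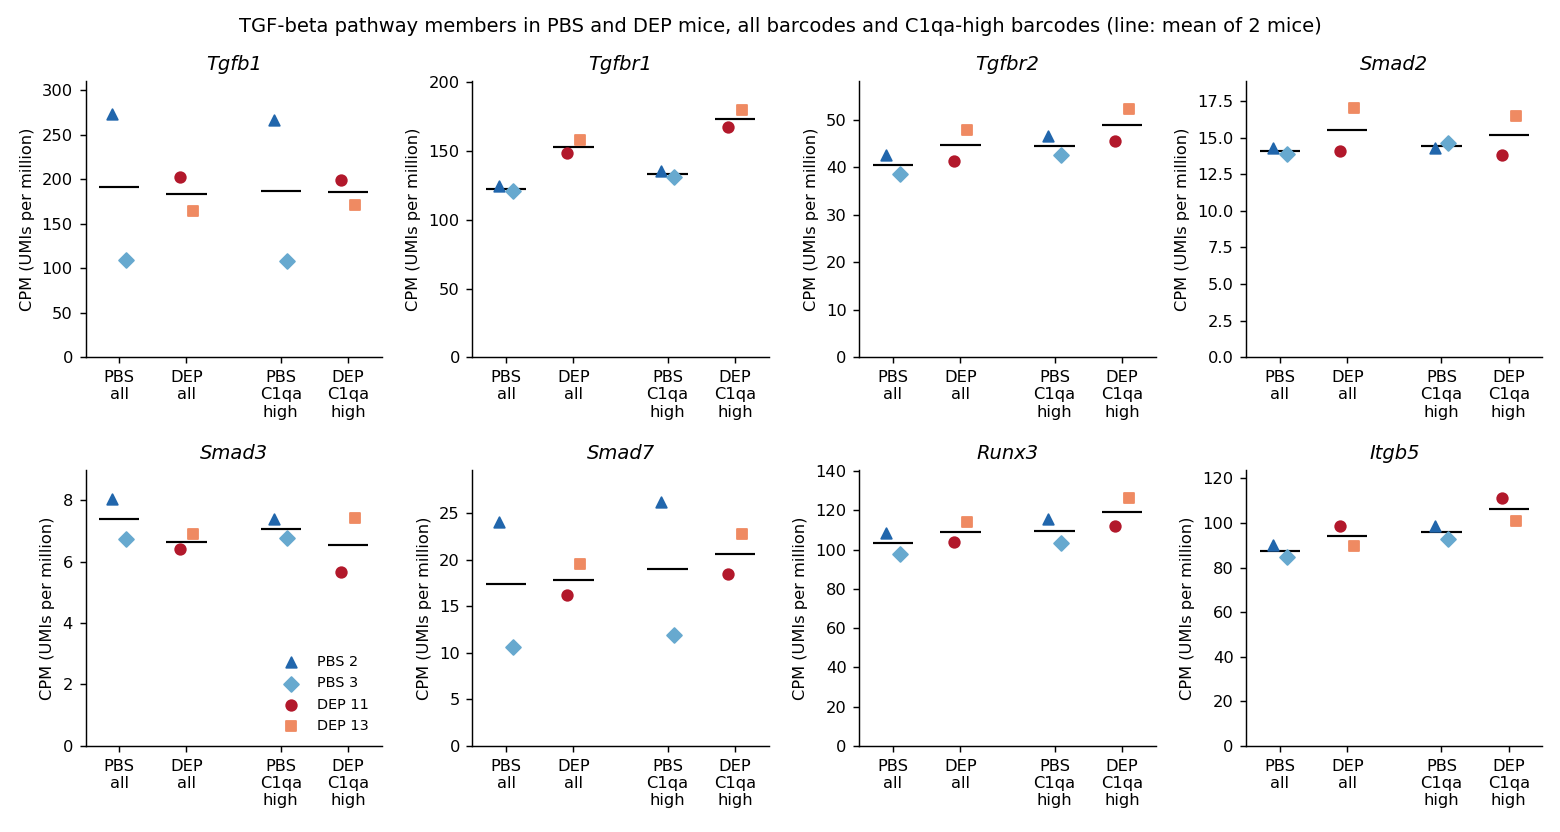
Level of each member (y axis, CPM) in PBS and DEP mice over all kept barcodes and over C1qa-high barcodes (x axis), with 1 point per mouse and a line at the mean of 2 mice. Tgfbr1 is higher in both DEP mice (149 and 158, against 124 and 121 over all barcodes), and Tgfb1 and Smad7 show the 2 PBS mice far apart.

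Tgfb1 varied more between the PBS mice than between exposures. Over all kept barcodes its level was 203 CPM for DEP 11, 165 for DEP 13, 274 for PBS 2 and 109 for PBS 3, so that the PBS mice held both the highest and the lowest value. PBS 2 was 2.51-fold above PBS 3, while the DEP mice differed by 1.23-fold. Of all tested genes, 2.07% differed more than 2-fold between the PBS mice and 0.711% between the DEP mice. Smad7 was the other such member, at 24.05 in PBS 2 and 10.7 in PBS 3 (2.25-fold), and the remaining members differed by 1.03-fold to 1.196-fold between the PBS mice. The order of the mice for Tgfb1 was kept in C1qa-high barcodes, at 267 in PBS 2, 200 in DEP 11, 171 in DEP 13 and 108 in PBS 3. Plasma and other lymphoid marker UMIs went the other way between these mice, with at least 3 of them in 47.8% of barcodes in PBS 2 and 89.1% in PBS 3, and their part in this difference was not tested.

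The genes most like each member across the 16 sums (4 strata of 4 mice) were found by Pearson correlation of log2 counts CPM, as a description, since the sums share libraries and depth. Tgfb1 was most like Csf2ra, a receptor chain for GM-CSF (r = 0.92), and Spi1, the transcription factor PU.1 of myeloid cells (r = 0.83). Csf2ra had a level of 134, 106, 147 and 96.0 CPM over all barcodes of DEP 11, DEP 13, PBS 2 and PBS 3, in the same order of mice as Tgfb1. Tgfbr1 was most like Nceh1 (r = 0.97) and Antxr2 (r = 0.96), Tgfbr2 like Dse and Sh2d1b1 (0.93 and 0.92), Runx3 like Fcrls and Lag3 (0.94 and 0.94), Itgb5 like Ifi27 and Mmp13 (0.91 and 0.87), Smad7 like H2-DMb1 and Gsn (0.91 and 0.90) and Smad2 like Fam76a and Uggt1 (0.96 and 0.94). Several of these values rested on sums without a UMI. Tgfbr1, Tgfbr2 and Smad2 each had 1 sum at 0, in which both of their genes were at 0 too, and without it r was 0.90 and 0.88 for Tgfbr1, 0.65 and 0.59 for Tgfbr2 and 0.76 and 0.61 for Smad2. Smad7 had 6 sums at 0, and over the others r was 0.63 and 0.77. Runx3 had a UMI in every sum, but Lag3 was at 0 in Ly6c2-high barcodes of DEP 13 and PBS 3, and Fcrls in those of PBS 3. Among the members themselves the closest pair was Tgfbr1 and Itgb5 (r = 0.79 with the sum at 0 included).

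RNA free in the droplets gives UMIs in cells that do not express a gene, so the members were also read in barcodes led by other cells. In the 124 barcodes richest in lymphoid and plasma cell markers (median 14602.5 UMIs), Tgfbr1 was at 56.5 CPM, Itgb5 at 33.6, Runx3 at 41.4, Tgfbr2 at 13.4 and Tgfb1 at 62.1. After thinning to 1000 UMIs a Tgfbr1 UMI was seen in 6.45% of these barcodes, 5.89% of barcodes with C1qa under 20 per 10000 (median 4694.5 UMIs) and 15.9% of those with C1qa at 20 or more (median 7088 UMIs). The share at low C1qa was close to that in the lymphoid-rich barcodes, and the share at high C1qa was higher. These barcodes are no lower limit, since Ly6c2-high barcodes had Tgfbr1 at 18.8 CPM and in 3.20% of barcodes after thinning. Itgb5 gave 4.84%, 4.03% and 11.3% in the same order. For Runx3 the shares were 3.23%, 7.08% and 10.7%, and for Tgfb1 7.26%, 18.6% and 16.4%, so that these 2 were above the lymphoid-rich barcodes on both sides of C1qa. The share of droplets that held a macrophage beside a lymphoid cell was not tested. The 2183 barcodes under 1000 UMIs, left out of all comparisons, had Tgfbr1 at 205 CPM and Tgfb1 at 255. Both were above their levels over all kept barcodes (134 and 192). For Tgfbr1 the level was above that in C1qa-high barcodes too (147), and not only above that in Ly6c2-high ones. The part of free RNA in these levels was not tested.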

How the data were processed

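Single-cell libraries (10x Genomics 3' v2) of sorted colon monocytes and macrophages of 2 DEP and 2 PBS mice were analysed. The authors deposited UMI counts, whole numbers per gene and barcode that were not normalized, and the submitters' processing notes list mm10, R 3.5.1, STAR 2.6.1a and Cell Ranger, the last without a version. Symbols and positions for 28416 of 28692 genes came from GENCODE M21. The mouse of a barcode was read from its suffix, and 36 of 6915 distinct barcode names occurred in more than 1 library. Doublets were not called or removed. The cell filters that the study states left 4623 of the 4771 barcodes with at least 1000 UMIs, several-fold more than the cells the study describes, so the barcodes analysed here are not the study's set.

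Barcodes under 1000 UMIs were left out (the lowest had 101), and counts were summed per mouse and stratum. Depth is given in the report, and intervals and floors cover counting error only. Genes over 1 CPM (counts per 1000000) in at least 2 sums that were seen in 5% of barcodes or more, other than Ly6c2 and C1qa, were tested with edgeR 4.0.16 (R 4.3.3, TMM, quasi-likelihood, Benjamini-Hochberg at 5%). DESeq2 1.42.0 and limma 3.58.1 (voom), other cell filters, strata and scalings, and each mouse left out were tried as alternatives. The fits of C1qa-high against Ly6c2-high and of DEP over all barcodes were also run on simulated counts. These had the same fixed spread for every gene and no differences between mice, so they do not show the error rate in these data. Nothing in the labels says that the mice shared a litter or cage.

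Named genes were all 8 members, up to 4 called genes per direction and comparison from the other pathway lists, and the 2 genes most like each member (at least 20 CPM, Pearson's r over 16 sums). Members and lists were chosen with earlier results of these data known.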

Additional observations from a re-analysis of the deposited data

Results flagged for a closer look

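Tgfb1 was singled out because the difference between C1qa-high and Ly6c2-high barcodes was positive in both DEP mice and negative in both PBS mice, with a gap between the mean of the DEP mice and the mean of the PBS mice of 66.2 CPM. In the DEP mice the levels were nearly the same in both strata (199.7 against 198.7 in DEP 11, and 170.7 against 170.4 in DEP 13). These differences were too small for their sign to be read. In the PBS mice the levels were lower in C1qa-high barcodes (267 against 324, and 108 against 182). The Ly6c2-high levels rested on 48, 17, 28 and 19 Tgfb1 UMIs in DEP 11, DEP 13, PBS 2 and PBS 3. The edgeR interaction of exposure and stratum did not pass for Tgfb1 (log2 difference 0.42, SE 0.32, adjusted p = 1).

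Smad2 was singled out in the same way for C1qa-high against double-high barcodes, where both DEP mice were lower and both PBS mice higher in C1qa-high barcodes, with DEP minus PBS at -11.3 CPM. This difference between exposures was not tested, and it rested on 7 to 13 Smad2 UMIs per mouse in double-high barcodes.

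Tgfbr2 was singled out in barcodes under 1000 UMIs, which the comparisons did not use. Its level there was 61.4 CPM for DEP 11, 45.4 for DEP 13, 34.7 for PBS 2 and 33.6 for PBS 3, so that the DEP mice exceeded the PBS mice by 19.2, from 38 UMIs in all, and the difference was not tested.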

How the results depend on the processing

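Counts are of genes called at an adjusted p under 0.05. With the settings of the report they were 826 for C1qa-high against Ly6c2-high (C/L), 28 for double-high against Ly6c2-high (D/L), 1436 for C1qa-high against double-high (C/D), 0 for DEP in all, Ly6c2-high and C1qa-high barcodes, 1 for DEP in double-high barcodes and 6 for the interaction, with 4, 1 and 5 members called in C/L, D/L and C/D. Of the results for single genes under other settings, 546 kept direction and call, 54 lost the call, 3 gained it and 40 changed sign, and the calls of Tgfbr1, Itgb5 and Runx3 in C/L held under every setting run; the cause of the changes below was not tested, beyond that some settings leave fewer barcodes, UMIs or mice, or more genes. With C1qa high at 20 per 10000 (chosen after seeing the data) the counts were 2187 for C/L, 210 for D/L (2 members), 356 for C/D (2 members), 5 for DEP in double-high barcodes and 10 for the interaction, Tgfbr2 in D/L was at 0.60, and shares in DEP minus PBS mice moved to -0.547 (Ly6c2-high), -0.515 (double-high), -0.943 (C1qa-high) and 2.0 percentage points (double-low), from 2.24, -3.30, -4.69 and 5.75. With strata at 10 per 10000 D/L gave 1 (0 members), C/D 741, DEP 3 in Ly6c2-high and 9 in double-high barcodes, log2 fold changes were 0.019 for Tgfb1 in C/L, -0.12 for Runx3 and 0.22 for Tgfbr2 in D/L and 0.17 for Smad2 in C/D, and shares 0.636 (Ly6c2-high), -9.24 (C1qa-high) and 10.2 (double-low). At 2.5 per 10000 C/L gave 481, D/L 61 (0 members), DEP in double-high barcodes 0 and the interaction 0, with log2 fold changes in C/L of 0.31 (Tgfb1), -0.45 (Smad2) and 0.25 (Id3), 0.38 for Tgfbr2 in D/L and 0.18 for Smad2 in C/D, and shares of -0.146 (C1qa-high) and 2.41 (double-low). DESeq2 gave 0 members in D/L and DEP counts of 4 (all), 0 (double-high), 6 (C1qa-high) and 0 (interaction), and limma voom gave 9 for DEP in Ly6c2-high barcodes, 0 for the interaction and 0.085 for Tgfb1 under DEP in all barcodes. RLE scaling gave 0 members in D/L and 0.034 for Smad2 in C/D. Without the gene filter D/L gave 99 and DEP 119 (all), 12 (Ly6c2-high), 45 (double-high) and 124 (C1qa-high), with Tgfb1 at 0.087 in C/L and 0.0068 in C/D and Smad2 at 0.045 in C/D, where the median of all genes shifted by 0.15 in C/L. With at least 3000 UMIs D/L gave 0 members and DEP 3 (Ly6c2-high) and 4 (double-high), with Smad2 at 0.016 in C/D and Smad7 at -0.022 under DEP. The cell filters of the study gave 0 for DEP in double-high barcodes. Thinned to 1000 UMIs, C/L gave 216, D/L 2 (0 members), C/D 391 (3 members), DEP 3 (Ly6c2-high) and 0 (double-high), with Tgfb1 at 0.48 in C/L and 0.11 under DEP. Without barcodes with 3 lymphoid or plasma UMIs the counts were 362, 7 (0 members) and 655 for C/L, D/L and C/D, DEP gave 3 (Ly6c2-high) and 0 (double-high) and the interaction 0, with 0.39 for Tgfb1 in C/L, 0.18 for Smad2 and 0.25 for Thbs1 in C/D, and -0.0017 (Smad2), -0.25 (Smad7), -0.15 (Runx3) and -0.032 (Itgb5) under DEP. Without barcodes at 50 per 10000 of those markers (added later) D/L gave 10 (0 members) and DEP 1 (Ly6c2-high) and 2 (double-high), and without the top 5% of barcodes by UMIs D/L gave 11 (0 members) and DEP 1 (all), 5 (double-high) and 1 (C1qa-high), with Smad7 at -0.0065. Leaving out 1 mouse at a time (a lone mouse is then assumed to vary like the others) gave 494 to 760 for C/L (lowest without DEP 11), 16 to 46 for D/L (0 to 1 members), 4 to 35, 4 to 13, 6 to 14 and 4 to 28 for DEP in all, Ly6c2-high, double-high and C1qa-high barcodes and 0 to 8 for the interaction (0 without PBS 2), with log2 fold changes of -0.16 to 0.071 (Tgfb1) and -0.26 to 0.54 (Smad2) in C/L, -0.21 to 0.036 (Tgfb1) and -0.20 to 0.15 (Smad2) in C/D, and -0.52 to 0.70 (Tgfb1), -0.0073 to 0.28 (Tgfbr2), -0.040 to 0.31 (Smad2), -0.38 to 0.68 (Smad7) and -0.026 to 0.19 (Runx3) under DEP in all barcodes. Without the mouse as a block D/L gave 8 (0 members). No paired analysis was possible because DEP and PBS mice share no replicate number.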

Other observations

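The 277 double-low barcodes, with little Ly6c2 and little C1qa, were not a side of any comparison between strata. They were part of the sums over all kept barcodes, in which DEP and PBS mice were compared, and of the lowest C1qa range. In the double-low barcodes Tgfbr1 was at 69.2 CPM for DEP 11, 77.1 for DEP 13, 28.7 for PBS 2 and 57.1 for PBS 3. Runx3 was at 64.2, 56.4, 86.1 and 75.2, and Itgb5 at 59.3, 32.6, 28.7 and 21.0, in the same order. In each mouse these 3 members were below their level in C1qa-high barcodes. Tgfb1 was at 257, 148, 277 and 111, with PBS 2 highest, as in the other 3 strata.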
